A study of Mus musculus with 2 samples.

Results

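The genes described here encode ATP-dependent chromatin remodelers, together with subunits and relatives that share their family names. They were chosen by symbol: every gene of the expression table beginning with Smarc, Chd and a digit, Ino80, Arid and a digit or Baz and a digit, plus Atrx, Hells and Bptf. The rule found 46 of the 23234 genes in the table, and Srcap, which it also names, was not analysed here. Of the 46, 41 reached a mean FPKM of 1 across the libraries and are called expressed, as were 10438 genes of the whole table. FPKM is a fragment count scaled to transcript length and sequencing total, so levels of different genes can be compared per length.

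RNA-seq was performed on round spermatids, the haploid germ cells that have finished meiosis but not yet elongated, from C57BL/6 mice. There was 1 wild-type library and 1 library labelled Epc-dKO, for mice described as deficient in Epc1 and Epc2. The products of these genes belong to NuA4/TIP60, a histone-acetylating complex. The labels do not give the animals' age, how many mice were pooled, or how and in which cells the alleles were deleted. With 1 library per genotype there is no replicate check and no p-value, every difference below is a difference between 2 libraries, and the read depth is unknown. Each pair of levels below is an FPKM, wild type first and the library labelled Epc-dKO second. Differences are log2 ratios of the second over the first after adding 1 FPKM to both, which makes differences of low genes look smaller. The words rose and fell are kept for ratios of at least 2-fold. Epc1 (FPKM 11.4 and 13.6 in the wild-type and Epc-dKO-labelled libraries) and Epc2 (7.12 and 10.5) were not lower under the knockout label. The deleted exons are not given, and reads from any exons left in place would count toward these values. The values therefore check neither label, and why they were not lower was not tested.

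Remodelers are motors of the Snf2 family that burn ATP to slide, evict or exchange nucleosomes. SWI/SNF complexes mainly open chromatin, ISWI motors space nucleosomes with partners such as Bptf and the Baz proteins, most CHD proteins combine a motor with chromodomains that bind histone tails or DNA, and INO80-type complexes act on nucleosomes holding the variant H2A.Z. In spermatids, where histones become hyperacetylated and are then replaced by transition proteins and protamines, the neuronal and testicular motor CHD5 is known to be needed for normal chromatin compaction.

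Among the 41 expressed members a single gene, Baz2b, passed the 2-fold rule upward and 0 passed it downward. That is 2.44% higher, beside 2.75% of all expressed genes that were higher, 1.88% that were lower and 4.63% in either direction, so the members' share is near that of the table. The members had a median ratio of 0.12 on the log2 scale (quartiles -0.20 and 0.28), and all expressed genes had a median of -0.05 (quartiles -0.34 and 0.24). Of the members, 24 lay above 0 and 17 below (58.5% above). Over all expressed genes 4761 lay above 0 and 5677 below (45.6% above), which is the base for the sign counts that follow. At 1.5-fold, Baz2b, Bptf and Baz1a were higher and Hells was lower, against 8.02% of all expressed genes higher, 10.8% lower and 18.8% in either direction. The order of the members by level was much the same in the 2 libraries, with a Spearman coefficient of 0.967 over the 46 genes, given as a description since the genes share their libraries and the wide span of levels.

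Baz2b is described first by its promoter, because it was the member that rose. The promoter windows are 300 bases long, from 250 before to 50 after each RefSeq start, in build GRCm38.p6, which is not the mm9 build of the expression table. Of the 46 members, 34 had an entry, with 41 windows. The cAMP response element (CRE) TGACGTCA, the site through which CREM drives many spermatid genes, was searched on both strands, as was its core TGACG and the GC box GGGCGG, and the core lies within the full element. Capitals mark the core in either orientation and the GC box. Baz2b is shown beside its paralog Baz2a, Bptf, which had the next largest ratio, and Chd5, the most abundant CHD gene of the wild-type library.
Baz2b, chr2:60125691-60125990 (- strand): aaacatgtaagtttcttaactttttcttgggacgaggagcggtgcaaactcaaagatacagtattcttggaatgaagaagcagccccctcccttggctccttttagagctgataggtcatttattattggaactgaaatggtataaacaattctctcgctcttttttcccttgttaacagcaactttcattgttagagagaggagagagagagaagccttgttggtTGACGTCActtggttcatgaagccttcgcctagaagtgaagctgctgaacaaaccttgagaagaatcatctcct
Baz2a, chr10:128092533-128092832 (+ strand): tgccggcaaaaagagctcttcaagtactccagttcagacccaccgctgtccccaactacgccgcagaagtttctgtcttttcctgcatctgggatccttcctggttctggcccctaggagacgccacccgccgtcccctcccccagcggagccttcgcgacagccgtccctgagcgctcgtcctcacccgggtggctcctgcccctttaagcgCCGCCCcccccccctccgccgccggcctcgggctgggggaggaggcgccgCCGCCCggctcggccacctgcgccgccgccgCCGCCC
Bptf, chr11:107132098-107132397 (- strand): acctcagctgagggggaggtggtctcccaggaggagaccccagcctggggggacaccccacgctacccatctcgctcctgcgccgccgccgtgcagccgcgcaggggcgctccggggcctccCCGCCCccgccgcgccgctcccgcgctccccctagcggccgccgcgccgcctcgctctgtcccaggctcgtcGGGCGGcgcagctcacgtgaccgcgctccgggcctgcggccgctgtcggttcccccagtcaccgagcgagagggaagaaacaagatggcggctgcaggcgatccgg
Chd5, chr4:152338401-152338700 (+ strand): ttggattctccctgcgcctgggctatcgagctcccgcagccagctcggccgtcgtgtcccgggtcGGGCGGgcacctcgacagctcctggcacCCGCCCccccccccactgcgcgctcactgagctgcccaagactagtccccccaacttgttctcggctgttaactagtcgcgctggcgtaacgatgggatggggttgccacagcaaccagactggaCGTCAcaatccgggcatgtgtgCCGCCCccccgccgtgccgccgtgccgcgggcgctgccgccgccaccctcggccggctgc
In the Baz2b window the full element TGACGTCA begins 24 bases before the start. It was the only one of the 41 member windows to hold it (2.44%), beside 1.79% of the 32851 promoter windows of the genome and 3.43% of the 9311 windows of expressed genes. The core TGACG was in 15 member windows (36.6%), against 20.8% of all windows and 31.3% of those of expressed genes, and the GC box was in 31 (75.6%), against 35.7% and 59.6%. Windows of the same gene can overlap, as for Chd4 and Chd5, and then a match can count more than once. By gene, 13 of the 34 members with an entry held the core and 28 held the GC box. The Baz2b window had a GC content of 41.7% with 5 CpG sites, where the member windows had medians of 65.7% and 25. Over all promoter windows of the genome the medians were 52.7% and 7. Low values were not particular to Baz2b, since the Arid5b window had 43.3% and 7. A match is only a run of letters: of 296 expressed genes with the full element in a window, 4 (1.35%) were at least 2-fold higher and their median log2 ratio was -0.06, and of 6980 without it, 147 (2.11%) were higher, with a median of -0.05.

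**Figure D1:**
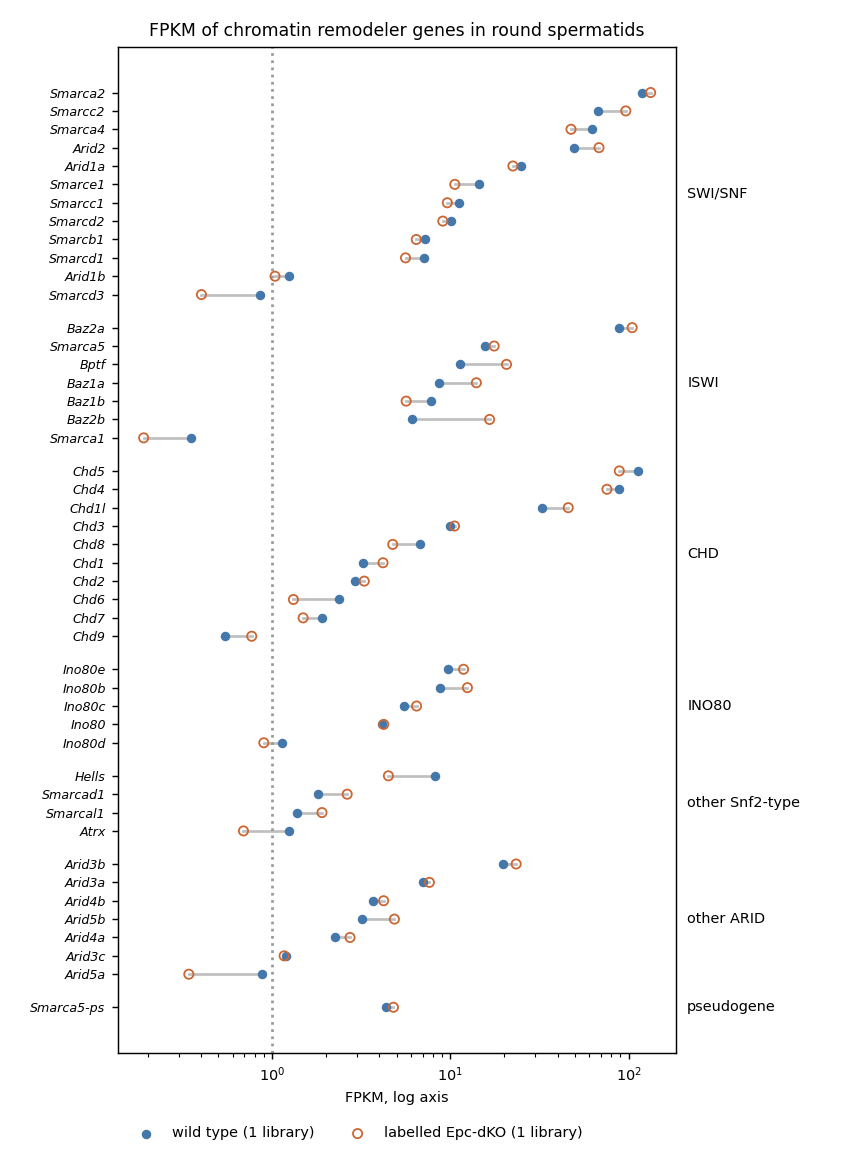
FPKM on a log axis for the 46 members by family, with filled points for the wild-type library and open points for the library labelled Epc-dKO (1 library each); the dotted line marks an FPKM of 1. Baz2b moved from 6.11 to 16.6. Among the most abundant genes, Smarca2 had 120 and 133, Chd5 113 and 88.8, and Smarcc2 67.7 and 96.6.

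The ISWI group held the member that rose and the next 2 largest positive ratios. Baz2b, which encodes a bromodomain partner of ISWI motors, had 6.11 FPKM in wild type and 16.6 under the Epc-dKO label, a plain FPKM ratio of 2.72 and a log2 ratio of 1.31, higher than 98.4% of expressed genes. By level it went from rank 26 to rank 13 of the 46 members. Bptf, the large reader subunit of the NURF complex, had 11.3 and 20.7 (log2 ratio 0.82), and did not reach 2-fold. Baz1a, the ACF1 partner in the nucleosome-spacing complex ACF, had 8.69 and 14.01 (0.63), also within the rule. Baz2a, the TIP5 subunit of the nucleolar remodeling complex NoRC, was the most abundant of the group at 89.0 and 105 (0.23). Baz1b, the Williams syndrome transcription factor, had 7.76 and 5.66 (-0.40) and was the only expressed member of the group with a ratio below 0.

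The family has a pair of motor genes, and neither passed the rule. Smarca5, the SNF2H motor, had levels of 15.7 and 17.6 FPKM (log2 ratio 0.16). Smarca1, the SNF2L motor, was at 0.350 and 0.190, under the level called expressed, a plain FPKM ratio of 0.543 and a log2 ratio of -0.18 after adding 1 FPKM. The pseudogene Smarca5-ps had 4.34 and 4.80, and Smarca5 stood 3.61 and 3.67 times above it in the 2 libraries. Such a copy can share reads with its parent, so the separate values of the pair are uncertain. Over the 6 expressed members the median log2 ratio was 0.43, and without Baz2b it was 0.23. Of the ISWI partners outside the symbol rule, listed from textbook knowledge, 0 of 6 expressed genes passed 2-fold and their median was -0.36. They include the histone-fold genes Pole3 (42.4 and 32.7) and Chrac1 (23.0 and 17.8), which belong to the CHRAC complex with Baz1a, and the histone-binding genes Rbbp4 (7.54 and 5.62, log2 ratio -0.37) and Rbbp7 (4.41 and 1.87, log2 ratio -0.92).

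The longest annotated transcript of Baz2b has 7895 nt and that of Bptf 12036 nt. Most members are long: 29 of the 41 expressed ones have a longest transcript of 5000 nt or more. At that length 37 of 2184 expressed genes (1.69%) were higher and 23 (1.05%) were lower, against 7.34% and 5.49% of the 1785 genes under 1500 nt. Genes listed as markers of late spermatids stood in the same direction as Baz2b. All 12 listed late markers lay above 0, with a median log2 ratio of 0.96, 6 of them rose, and their summed FPKM was 983 and 2298. The summed FPKM of 17 round spermatid and acrosome markers was 918 and 905, and their median log2 ratio was 0.02. The part of the late marker difference in the Baz2b value was not tested, and in bulk RNA fewer cells of a type and less RNA per cell cannot be told apart.

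**Figure D2:**
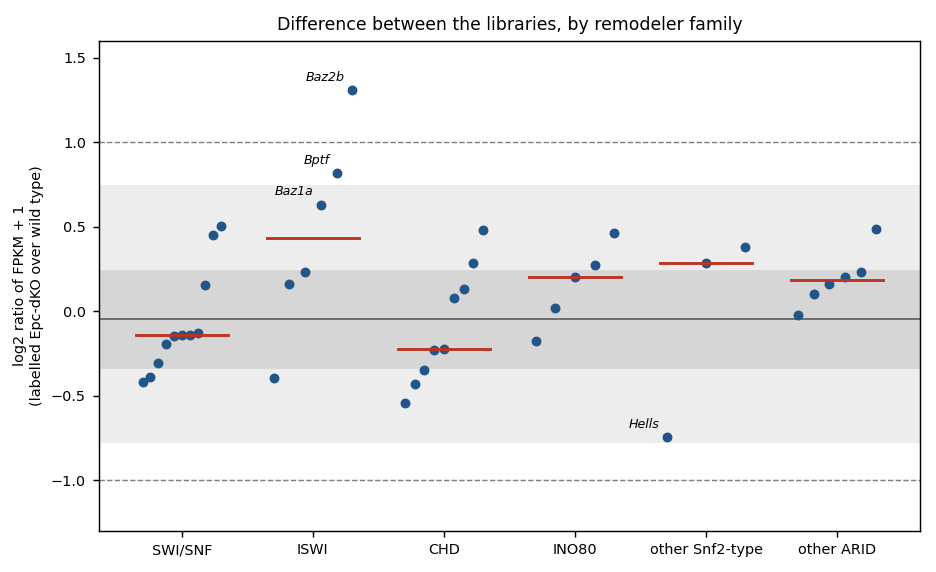
Log2 ratio of FPKM + 1 (library labelled Epc-dKO over wild type) for the expressed members of the 6 families (Smarca5-ps is not drawn); points are genes, red lines group medians, the dark band the quartiles and the light band the 5th to 95th percentiles (-0.77 to 0.74) of all 10438 expressed genes, and dashed lines 2-fold. Baz2b alone is past a dashed line, Bptf lies above the light band, and Hells sits near its lower edge at -0.75.

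SWI/SNF genes were the first family by summed FPKM, with 377 and 411, and 0 of 11 expressed members passed 2-fold. The motor Smarca2, which encodes BRM, was the highest of all 46 members in both libraries at 120 and 133 (log2 ratio 0.15), above 97.6% and 97.8% of expressed genes. Its alternative, Smarca4, which encodes BRG1, had 62.7 and 47.6 (-0.39). Smarca2 thus made up 65.6% of the summed motor FPKM in wild type and 73.7% under the Epc-dKO label.

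The scaffold paralogs also differed in level. Smarcc2, for BAF170, had 67.7 and 96.6 (log2 ratio 0.51), the largest ratio of the family. Its paralog Smarcc1, for BAF155, had 11.2 and 9.63 (-0.20), so that Smarcc2 supplied 85.8% and 90.9% of their sum. Every complex uses one of these scaffold paralogs or a pair of them. Smarcc1 overlaps the end of the abundant gene Dhx30 on the opposite strand by 123 nt in GENCODE, and the strand setting of the counting is not given in the sources used here.

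The ARID subunits, which set the class of complex, spanned a wide range of levels. Arid2, the mark of the PBAF class, was the most abundant at 49.8 and 68.3 (log2 ratio 0.45). Arid1a, of the canonical BAF class, had 24.9 and 22.5 (-0.14), and its paralog Arid1b had 1.25 and 1.04. Arid2 was thus 1.996 times Arid1a in wild type and 3.04 times under the Epc-dKO label. This compares the RNA levels of 2 genes, and the amounts of the complexes were not measured. The other core genes were lower in level. Smarce1, for BAF57, had 14.5 and 10.6 (-0.42), the lowest ratio among the expressed members of the family. Smarcb1, for the core subunit SNF5, had 7.23 and 6.44 (-0.14). Among the BAF60 genes Smarcd2 (10.05 and 9.08) exceeded Smarcd1 (7.16 and 5.61), and Smarcd3, the form known from heart and muscle, was at 0.851 and 0.401, under the level called expressed. In GENCODE the Smarcd3 locus overlaps the gene Chpf2 (3.18 and 1.77) on the opposite strand by 3739 nt, so its value could be shared if strand was not used.

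The median of the SWI/SNF genes was -0.14, with 8 of 11 below 0, beside 5677 of all 10438 expressed genes. Partners of the complex outside the symbol rule had a median of 0.10 over 13 expressed genes, of which 0 passed 2-fold. The actin gene Actb had 52.1 and 57.5 and the actin-related gene Actl6a 27.4 and 29.5. Dpf3, a histone-reading finger protein, had 29.3 and 15.3 (log2 ratio -0.89), and Bcl11a, a zinc finger subunit, had 1.299 and 2.18 (0.47). Actl6b, the neuronal counterpart of Actl6a, was at 0.201 and 0.164.

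CHD genes were the second family by level, with a summed FPKM of 262 and 237, and 0 of 9 expressed members passed 2-fold. Chd5 led them at 113 and 88.8 (log2 ratio -0.35) and Chd4, the usual motor of the NuRD deacetylase complex, followed at 88.8 and 75.7 (-0.23). Chd3, the remaining NuRD-type motor, had 9.97 and 10.6 (0.08). Chd5 supplied 53.4% of the summed level of these 3 genes in wild type and 50.7% under the Epc-dKO label. Chd5 stood at rank 2 of the 46 members in the wild-type library and rank 4 in the other.

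Chd1l, for ALC1, a motor activated by poly(ADP-ribose) through a macrodomain and lacking chromodomains, was the next in level at 32.7 and 45.9 (log2 ratio 0.48), the largest ratio in the family. Chd1 (3.26 and 4.19) and Chd2 (2.92 and 3.29), which act with transcribing RNA polymerase, were low and close to each other. The remaining group of large CHD genes had ratios below 0 in 3 of 4 cases. Chd8 had 6.77 and 4.75 (-0.43), Chd6 had 2.37 and 1.32 (-0.54) and Chd7, mutated in CHARGE syndrome, had 1.91 and 1.49 (-0.22). The exception, Chd9, was under the level called expressed at 0.541 and 0.769. The median of the 9 expressed CHD genes was -0.22, and without Chd6, the most different of them, it was -0.07.

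Genes of the NuRD complex that CHD motors join were mostly close between the libraries, with a median of 0.08 over 12 expressed genes and 0 past 2-fold. Hdac1, the deacetylase subunit, had 76.8 and 66.4, and Mta1, a scaffold, had 40.3 and 47.4. Mbd2, which binds methylated DNA, had 3.62 and 7.82 (log2 ratio 0.93), the largest value of the list, and its alternative Mbd3 had 23.8 and 19.1 (-0.30). Rbbp7, counted here too, had the lowest at -0.92.

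**Figure D3:**
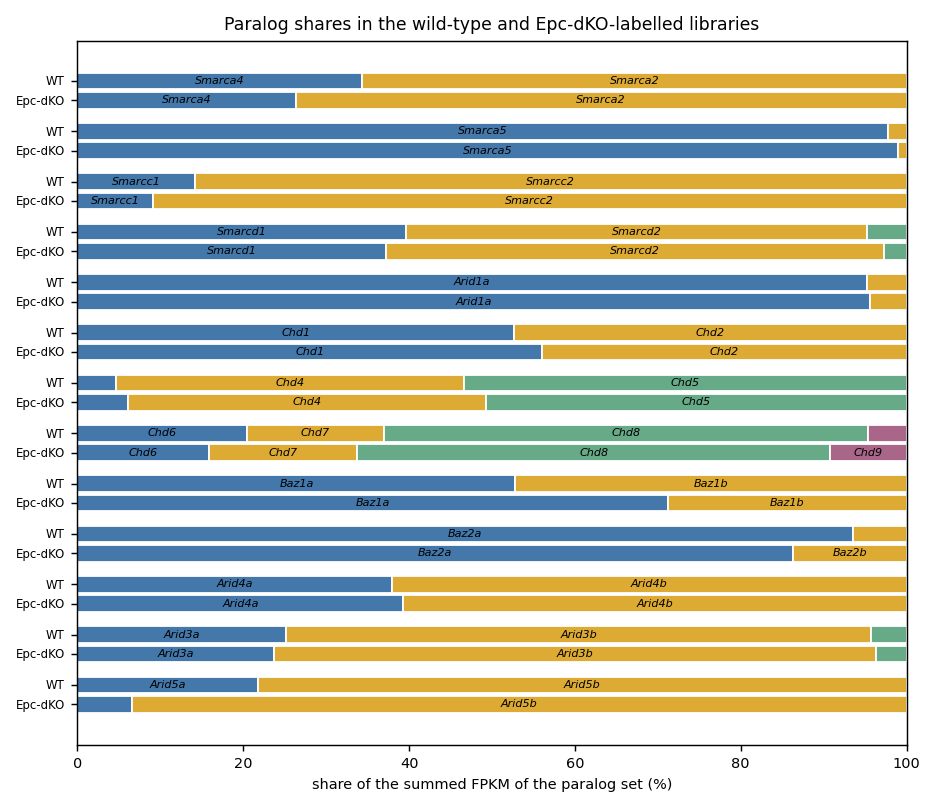
Share of the summed FPKM (%) that each gene took of its paralog set, in the wild-type library (WT) and the library labelled Epc-dKO, 1 library each and without error bars. The Baz1a share went from 52.8% to 71.2% and the Arid5b share from 78.3% to 93.4%, the 2 widest moves among the 13 sets, while Arid1a stayed near 95%.

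Within paralog sets the same gene was the largest in both libraries in all 13 sets. The widest move in share was that of Baz1a against Baz1b, by 18.4 percentage points toward Baz1a. Arid5b against Arid5a moved by 15.2 points, but Arid5a was at 0.882 and 0.341 and its share rests on low values. Smarca2 gained 8.05 points over Smarca4 and Baz2b 7.26 points over Baz2a, although Baz2a remained 6.31 times as high as Baz2b in the library labelled Epc-dKO (14.6 times in the wild-type library). A share cannot be changed by rescaling a library, but it has no error here, and no move was tested.

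The INO80 genes were low to moderate in level and 0 of 5 passed 2-fold, with a median log2 ratio of 0.20. The motor gene Ino80 itself had levels of 4.16 and 4.23 FPKM (log2 ratio 0.02), the smallest absolute ratio of all 46 members. Its subunit genes Ino80e (9.67 and 11.9), Ino80b (8.77 and 12.5, log2 ratio 0.46) and Ino80c (5.49 and 6.47) were all somewhat above it. Ino80d, the remaining subunit gene, had 1.14 and 0.899. In GENCODE the Ino80e locus overlaps the abundant gene Hirip3 (80.5 and 88.9) on the opposite strand by 406 nt, so part of its value could be shared if strand was not used.

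Partners of INO80 and of the related H2A.Z-exchanging complexes had 15 expressed genes, 0 past 2-fold, and a median of -0.07. The AAA ATPase gene Ruvbl2 had 84.9 and 80.9, against 9.02 and 7.14 for Ruvbl1, with which it forms the ring of these complexes. Mcrs1, an INO80 subunit, had 27.2 and 18.8 (log2 ratio -0.51), the lowest of the list. Tfpt, another INO80 subunit, had 3.56 and 2.56 (-0.36).

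**Figure D4:**
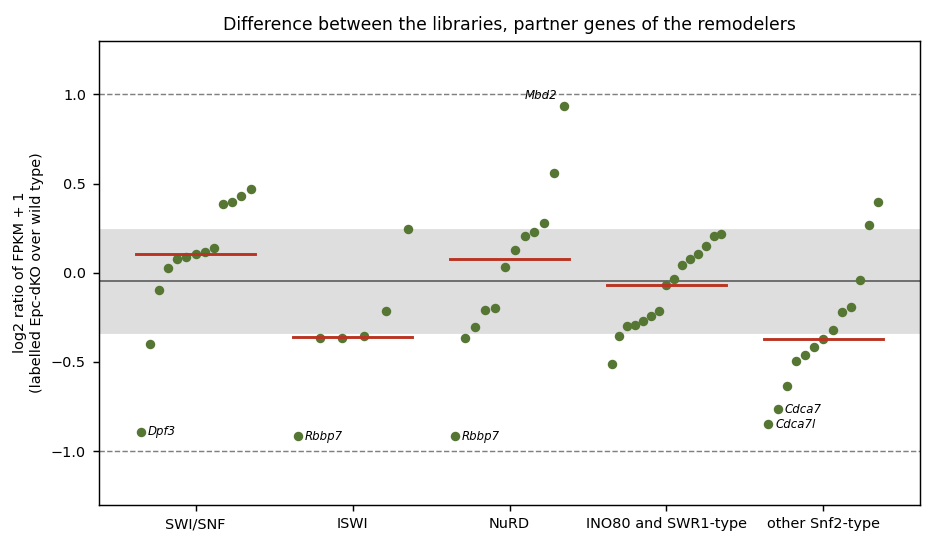
Log2 ratio of FPKM + 1 (library labelled Epc-dKO over wild type) for expressed partner genes outside the symbol rule, by complex; points are genes, red lines medians, the band the quartiles of all expressed genes and dashed lines 2-fold, and Actl6a, Rbbp4 and Rbbp7 stand in 2 lists each. No partner passes a dashed line, and Mbd2 and Rbbp7 come nearest at 0.93 and -0.92.

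The other Snf2-type motors went both ways. Hells, also called LSH, a motor that supports DNA methylation of repeats, had 8.22 FPKM in wild type and 4.49 under the Epc-dKO label, a log2 ratio of -0.75 that did not reach 2-fold and was the lowest of the 41 expressed members. Among expressed genes it stood at the percentile of 5.68. Cdca7, whose protein recruits Hells to chromatin, had 2.39 and 0.997 (-0.76), and its relative Cdca7l had 2.56 and 0.974 (-0.85). Spermatogonial markers, for the mitotic germ cells, stood on the same side: 12 of 13 expressed ones lay below 0 and 2 fell, Dmrt1 (-1.29) and Crabp1 (-1.07). Their median was -0.74, and their summed FPKM was 156 and 147, of which Ddx4, which spermatids also express, gave 110 and 125. Without Ddx4 the sums were 46.2 and 21.7. The part of these cells in the Hells value was not tested.

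Smarcad1, a motor for heterochromatin and DNA end resection, had 1.80 and 2.64 (log2 ratio 0.38), and Smarcal1, which remodels stalled replication forks, had 1.39 and 1.91 (0.28). Atrx, which places histone H3.3 in heterochromatin with Daxx, was at 1.25 and 0.691 (-0.41), a mean just under the level called expressed. Daxx had 50.02 and 35.2 (-0.50), far above Atrx in level. Atrx and Smarca1 are the X-linked members. Both had ratios below 0 (Smarca1 at -0.18), and the median of all 326 expressed X-linked genes was -0.47, against -0.03 for 10020 autosomal genes.

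Further Snf2-type motors and cofactors outside the symbol rule had a median of -0.37 over 13 expressed genes and 0 past 2-fold. The most abundant was Ep400, the motor of the TIP60 complex in which Epc1 and Epc2 act, at 123 and 105 (log2 ratio -0.22).

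The remaining ARID genes encode DNA-binding proteins that are not regular subunits of a remodeler, and 0 of 6 expressed ones passed 2-fold, with a median of 0.18. Arid3b, of the Bright family, had levels of 19.8 and 23.4 FPKM (log2 ratio 0.23), and Arid3a, its relative, had 7.06 and 7.64. Arid5b, a partner of the demethylase PHF2, had 3.18 and 4.86 (0.49), the largest ratio of the group. Arid4a (2.25 and 2.74) and Arid4b (3.68 and 4.23), which bind the retinoblastoma protein and the Sin3 deacetylase complex, were low in both. Arid3c had 1.20 and 1.17, just above the level called expressed. Its locus overlaps Il11ra1 (0.726 and 0.738) on the opposite strand by 7307 nt in GENCODE, so its value could be shared if strand was not used. Arid5a, an RNA-binding member, was under the level called expressed.

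The level was concentrated in few genes. Smarca2, Chd5, Baz2a, Chd4, Smarcc2 and Smarca4 were each above 50 FPKM in wild type and together gave 62.7% of the members' summed FPKM. In the library labelled Epc-dKO the 6 genes above 50 were Smarca2, Baz2a, Smarcc2, Chd5, Chd4 and Arid2, with 61.5%. Of all genes listed, 3.59% were at 50 or above in wild type and 3.83% under the Epc-dKO label. At the other end, 4 members were under 1 in wild type and 6 under the Epc-dKO label, beside 54.5% and 57.0% of all genes listed. None of the members was listed at 0, where 3370 and 3441 of all genes were. The sum over all 46 members was 863 and 922, the sum over motor genes 478 and 449, and that over subunits and partners of the remodelers 343 and 424. Since no library was replicated, which neighbours in the order of levels differ cannot be said.

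The remaining markers bear on the cells in the libraries. Spermatocyte markers had a median log2 ratio of -0.20 over 14 expressed genes, 3 of them above 0 and 11 below. Hspa2 had 579 and 447, Ldhc 466 and 391, and Tex101, the single gene of the list that fell, 12.4 and 5.69. Pgk2 went the other way at 65.9 and 74.4, and Sycp1 (8.49 and 7.65) and Hormad1 (4.77 and 4.37) were low and close between the libraries. Sertoli markers were low, with 3 of 15 expressed, a summed FPKM of 16.0 and 10.5 and Fshr listed at 0 in the wild-type library. Leydig markers had a median of -0.08, with 3 of 8 expressed ones above 0, and summed to 34.4 and 26.3. Among them Insl3 fell (14.9 and 6.79), and without it the sums were 19.5 in both libraries. The peritubular, vessel and blood markers had a median of -0.46, with 5 of 6 expressed ones below 0. They summed to 35.7 and 48.3, but Actg2 alone rose (15.3 and 36.2), and without it the sums were 20.5 and 12.1. The globin genes Hba-a1 and Hbb-b1 were listed at 0 in both libraries. The part of these cells in the members' values was not tested.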

How the data were processed

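Total RNA of round spermatids was sequenced from directional libraries on an Illumina HiSeq instrument, 1 library per genotype, per the labels' protocols. The values used are the FPKM per gene that the authors deposited. Cufflinks 2.2.1 and the mm9 genome are named in the submitters' processing notes. The aligner, annotation, strand setting and any scaling between libraries were not found in these sources. The table had 23235 rows, of which 1 held library codes and was left out. A pseudocount of 1, a minimum mean FPKM of 1 and a 2-fold rule were used, and no test was possible. FPKM values carry no depth, so no counting interval is given. The members and gene lists were chosen with earlier results of these data known. All members are named. In each partner or marker list the rule takes genes past 2-fold, the 2 most abundant and the 2 most different, of which the text gives those that describe the list. Mbd3, Ruvbl1 and Actl6b were named for their roles after their values were seen, as were the printed promoters. Partner and marker lists held 172 entries, of which 169 matched. Lengths, chromosomes and overlaps came from GENCODE M21 (GRCm38) by symbol, with older symbols matched through RefSeq, and promoters from RefSeq GRCm38.p6. Protein sequences were not used here. Alternatives were pseudocounts, minimum levels, rescalings, other fold rules and leaving out members. Python 3.11.15, NumPy 2.4.6, pandas 2.3.3 and Matplotlib 3.10.9 were used.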

Additional observations from a re-analysis of the deposited data

How the results depend on the processing

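Baz2b was the sole member at least 2-fold higher under each pseudocount, minimum level and rescaling tried and with plain FPKM ratios. Under the 4-fold rule 0 members were higher. Calls were not recounted where members were left out. At 1.5-fold 3 members were higher and 1 lower. On the TPM scale (each library rescaled to a sum of 1000000), where values are larger and the minimum and pseudocount weigh less, all 46 members entered and Arid5a passed the rule at -1.03, so that 1 member was lower. With the libraries rescaled to equal FPKM sums at the same minimum and pseudocount, chosen after seeing the data, 0 were lower and the ISWI and CHD medians were 0.40 and -0.24. Of 365 recomputed member ratios 364 stayed on their side of the 2-fold rule, and Baz2b, the only called member, did not reverse. That count says little about small ratios, which can change sign and still stay within the rule. Ino80 did so, from 0.02 to -0.0067 with equal FPKM sums. Group medians of few genes moved more. The ISWI median was 0.23 without a minimum FPKM, 0.20 on the TPM scale and 0.23 without Baz2b. The CHD median was -0.0731 both without a minimum and without Chd6, and -0.11 on the TPM scale. The median of the other Snf2-type motors was 0.43 with a pseudocount of 0.1, 0.46 with plain FPKM ratios (an alternative chosen after seeing the data), -0.0653 without a minimum, -0.18 on the TPM scale and -0.75 at a mean FPKM of 5 or more, where Hells alone remained, so its sign rests on which low genes enter. The TPM scale moved the median of all genes to -0.13. The other 79 of 94 recomputed counts and medians moved by less than 0.1 or stayed within 1.5 times. No paired analysis was possible because the design holds a single library of either kind. How firmly low genes are measured is not known, since FPKM values carry no depth.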
